A study of Mus musculus with 20 samples.

Results

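The cytosolic heat shock proteins described here are 10 genes of mouse skeletal muscle: the HSP70 genes Hspa1a, Hspa1b and Hspa8, the HSP110 gene Hsph1, the J-domain gene Dnajb1, the HSP90 gene Hsp90aa1, the co-chaperone gene Bag3, and the small chaperones Hspb1, Hspb7 and Cryab. They were taken by name, and their probes were the array probes that carry one of these names in the scanner files. Of the 10 genes, 9 had a probe of their own name, with 13 probes in all among 39429 probes for 30175 gene names. All 13 were bright enough to be among the 19206 probes tested. No probe carried the name Hspa1b. The Hspa1a probe lists transcripts of both Hspa1a and Hspa1b and no other probe lists Hspa1b, so the pair cannot be told apart. The 7 inducible and constitutive genes (6 measured) are kept apart from the 3 small chaperones, which are abundant in muscle.

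Gene expression was measured in quadriceps, a thigh muscle, of 20 male C57BL/6J mice aged 6 weeks. Their mothers, 8 weeks old, ate semisynthetic food with 40% of its energy as fat, 23% as protein and 37% as carbohydrate (group mHFD, 10 offspring) or with 10%, 23% and 67% (group mLFD, 10 offspring). These maternal diets ran from 3 days before mating through lactation. Both groups of sons ate the low-fat food from weaning, lived in single cages and were killed after a fast of 2 h, so the groups differed in the mother's diet and not in their own food after weaning. Litters had been set to 5 to 7 pups and up to 4 siblings could be in a group. The labels do not say which, so the p-values below treat mice as independent that may share a mother. Each value is a log2 ratio of the Cy5-labelled sample to a Cy3-labelled pool of all samples on the same array. Differences are mHFD minus mLFD on that log2 scale with the standard error (SE) from limma, n = 10 per group unless a smaller n is given. A value above 0 means that the sample was brighter than the pool at that probe, and such ratios do not rank the abundance of one gene against another.

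Heat shock proteins are molecular chaperones that bind unfolded or damaged proteins and help to refold them or pass them on for degradation. HSP70 works in a cycle driven by ATP, which J-domain partners such as the product of Dnajb1 start and nucleotide exchange factors such as those of Hsph1 and Bag3 reset, while HSP90 acts on clients at a later stage of folding. The transcription factor HSF1 drives the inducible genes through repeated short elements in their promoters. Small heat shock proteins hold unfolding proteins without ATP, and in muscle they are found at the Z-disc and along the filaments of the sarcomere and of desmin.

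The probe sequences are shown for the HSP70 genes because these genes are related, and the reading of Hspa1a rests on 1 probe. The Hspa1a probe lies at chr17:35107117-35107176 on the minus strand of mouse build mm9, and the Hspa8 probe with the longest run of bases in common with it has coordinates chr9:40612755-40613050, which span more than its 60 bases. Capitals mark that run.
Hspa1a probe: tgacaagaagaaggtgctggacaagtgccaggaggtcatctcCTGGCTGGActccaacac
Hspa8 probe: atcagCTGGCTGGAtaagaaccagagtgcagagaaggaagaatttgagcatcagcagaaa
The shared run is 9 bases long, and with the other Hspa8 probes the Hspa1a probe shared runs of 7 and 6 bases. Without gaps, 19 of 59 aligned bases matched this Hspa8 probe, and 20 of 58 and 20 of 60 the others. The exon or UTR in which a probe lies is not given, because mm9 annotation was not used here.

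Promoters are shown because HSF1 is known to act through them. RefSeq promoters (build GRCm38.p6, with 250 bases before the start searched) were found for 7 of the 10 genes. The searched motif was a pair of facing or back-to-back units, GAANNTTC or TTCNNGAA, each of which reads the same on both strands (matches may overlap). It was found in 4 genes (Hspa1a, Hspa1b, Hspb1 and Hsph1) and not in Bag3, Dnajb1 or Hspb7, while 14.55% of all 27025 genes in the table have a promoter that holds it. A run of 3 alternating units was found in 0 of the 7 and in 0.51% of all genes. Hspa1a and Hspa1b had the same base at 247 of 250 positions (98.8%). The windows of 150 bases that end at the start site are given 5′ to 3′ with the matches in capitals, for Hspa1a at chr17:34972157-34972306 (minus strand), Hspb1 at chr5:135887769-135887918 (plus strand) and Hsph1 at chr5:149636337-149636486 (minus strand).
Hspa1a promoter: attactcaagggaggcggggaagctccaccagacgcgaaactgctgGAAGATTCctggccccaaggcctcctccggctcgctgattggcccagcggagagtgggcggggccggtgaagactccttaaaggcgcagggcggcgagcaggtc
Hspb1 promoter: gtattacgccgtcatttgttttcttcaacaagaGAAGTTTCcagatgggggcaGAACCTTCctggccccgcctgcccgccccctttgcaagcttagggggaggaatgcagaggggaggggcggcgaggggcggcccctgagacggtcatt
Hsph1 promoter: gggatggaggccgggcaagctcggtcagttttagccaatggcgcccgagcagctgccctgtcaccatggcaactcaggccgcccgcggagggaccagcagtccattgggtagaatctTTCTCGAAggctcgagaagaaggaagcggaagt
The Hspa1a match begins 104 bases before the start, the Hspb1 matches 117 and 97 bases before it, and the Hsph1 match 33 bases before the more upstream of its annotated starts. These are matches of letters, with no measurement of binding.

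No heat shock gene passed the test of mHFD against mLFD (limma, adjusted p of 0.05), against 0.00521% of all probes, that is 1 of 19206. In this fit none had an unadjusted p under 0.05 either, where 7.14% of all probes did, 4.03% with the higher level in mHFD. That count depends on the setting: over all alternatives the unadjusted limma p ran from 0.0202 to 0.548 for Hspa8, from 0.0198 to 0.278 for Hsp90aa1 and from 0.0141 to 0.259 for Hspa1a, with no adjusted p below 0.422. For 0 of the 13 probes did the groups lie fully apart, against 0.0104% of all probes. The differences were above 0 for 9 of 9 genes, against 51.6% of all probes, but for 4 with 1 slide left out and for 6 to 9 under other settings. Hsp90aa1, Hspa8 and Hspa1a had differences of 0.32, 0.27 and 0.25, and these 3 were the ones at 0.2 or more, which 1.27% of all probes reached in that direction. The median difference was 0.15 (0.04 to 0.32) over the 6 inducible and constitutive genes and 0.06 (0.04 to 0.06) over the 3 small chaperones, beside a median of 0.00297 over all probes. Under other settings the first median ran from 0.04 to 0.24 and the second from -0.04 to 0.10. The median absolute difference over all probes was 0.0509 and the median SE was 0.0609.

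**Figure D1:**
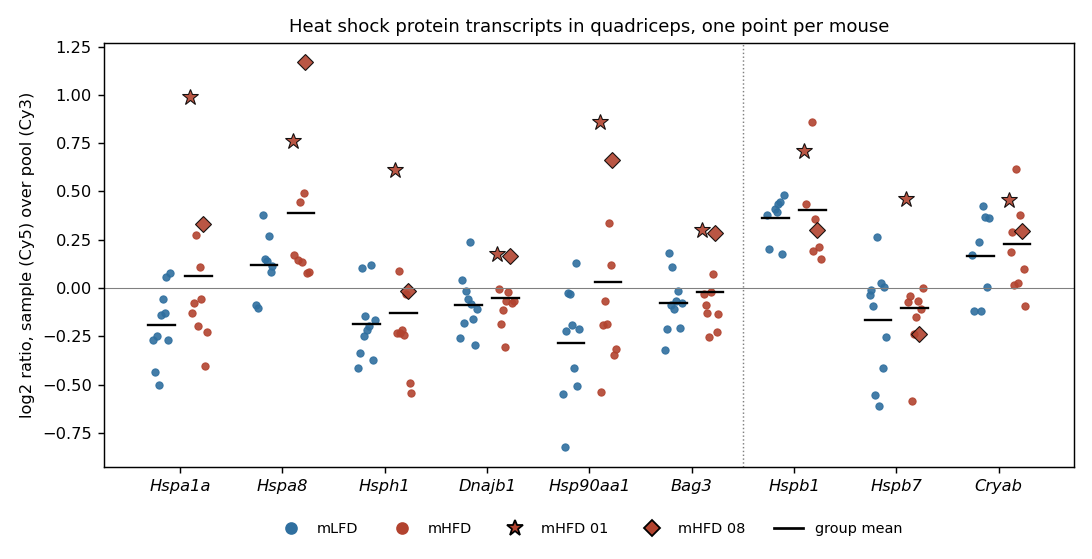
Log2 ratio of sample to pool (vertical axis) of each heat shock gene in quadriceps, by the brightest probe of the gene; each point is 1 mouse, black bars are group means, a star marks mHFD 01, a diamond mHFD 08, and the dotted line parts the 6 inducible and constitutive genes from the 3 small chaperones. The groups overlap for every gene, and mHFD 01 stands at 0.99 for Hspa1a, where the next mouse is at 0.33.

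Hspa1a encodes the HSP70 that is made on stress. Its log2 ratio ran from -0.40 to 0.99 in mHFD with a median of -0.07, and from -0.50 to 0.08 in mLFD with a median of -0.19. The array mHFD 01 was the highest of all 20, mHFD 08 came second at 0.33, and 4 mHFD arrays lay above the highest mLFD array, while the rest overlapped. The means were 0.06 ± 0.40 and -0.19 ± 0.19 (SD, n = 10 each), a difference of 0.25 (SE 0.13, 95% interval -0.01 to 0.52), and limma gave p = 0.0590 and an adjusted p of 0.690. This corresponds to a 1.19-fold level with an interval of 0.993 to 1.43. The Hspa1a probe was dim: it was well above background on 7 mHFD and 6 mLFD arrays, and its Cy5 signal exceeded the local background by 6.76 to 228 intensity units in mHFD and by 9.49 to 66.8 in mLFD. The size of the Hspa1a difference moved with the processing, to 0.61 with the scanner software's own log ratio and to 0.76 with Cy5 alone, and no setting gave an adjusted p below 0.494.

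Hspa8 encodes the HSC70 chaperone that cells make without stress, and its 3 probes did not read alike. On the brightest probe (chr9:40613223-40613282) the log2 ratio ran from 0.08 to 1.17 in 9 mHFD mice with a median of 0.17, and from -0.11 to 0.38 in 8 mLFD mice with a median of 0.13. The high values were those of mHFD 08 at 1.17 and mHFD 01 at 0.76, and the medians lay close together. The spots of mHFD 03, mLFD 03 and mLFD 04 were non-uniform and left out. The means were 0.39 ± 0.37 (SD, n = 9) and 0.12 ± 0.16 (SD, n = 8). The difference was 0.27 (SE 0.13, 95% interval -0.00054 to 0.54), with limma p = 0.0504 and an adjusted p of 0.690. The second probe, whose sequence is given above, differed by 0.11 (limma p = 0.271), and the third (chr9:40611142-40611201) by 0.05 (limma p = 0.667). The difference of the brightest Hspa8 probe was 0.079 with Cy5 alone and 0.17 in the authors' deposited table, and the mean over the 3 probes gave 0.14. Within groups, the brightest probe had r = 0.847 with the second over 17 arrays and r = 0.337 with the third.

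Hsp90aa1 encodes the inducible cytosolic HSP90 and had the largest difference of the 9 genes on these arrays. Its probe lies at chr12:111929248-111929307 on the minus strand. The log2 ratio ran from -0.54 to 0.86 in mHFD with a median of -0.13, and from -0.83 to 0.13 in mLFD with a median of -0.22. The 3 mHFD arrays above the highest mLFD array were mHFD 01 at 0.86, mHFD 08 at 0.66 and mHFD 06 at 0.34, and the other mHFD arrays lay within the mLFD range. At the low end stood mLFD 02 at -0.83 and mLFD 01 at -0.55, beside mHFD 02 at -0.54, all on slide 1. The means were 0.03 ± 0.46 and -0.28 ± 0.29 (SD, n = 10 each), a difference of 0.32 (SE 0.15, 95% interval -0.0024 to 0.64), which is 1.25-fold with an interval of 0.998 to 1.56 (limma p = 0.0516, adjusted p = 0.690).

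The partners of HSP70 had smaller differences. Hsph1, the HSP110 nucleotide exchange factor, ran from -0.54 to 0.61 in mHFD with a median of -0.23 and from -0.41 to 0.12 in mLFD with a median of -0.21 on its brighter probe (chr5:150419744-150419803). Only mHFD 01 lay above the highest mLFD array, and the 2 lowest of all 20 were mHFD 10 and mHFD 09. The Hsph1 difference was 0.06 (SE 0.11, limma p = 0.607, adjusted p = 0.914), and its dimmer probe (chr5:150420110-150420169) gave 0.02 (limma p = 0.887). Dnajb1 ran from -0.31 to 0.18 in mHFD with a median of -0.07 and from -0.29 to 0.24 in mLFD with a median of -0.10 (chr8:86135660-86135719). Here the highest array was mLFD 06, and the Dnajb1 difference was 0.04 (SE 0.07, limma p = 0.585, adjusted p = 0.909). Bag3, which links HSP70 to small heat shock proteins and to autophagy in muscle, ran from -0.25 to 0.30 in mHFD with a median of -0.06 and from -0.32 to 0.18 in mLFD with a median of -0.08 (chr7:135690281-135690340). Above the mLFD range stood mHFD 01 at 0.30 and mHFD 08 at 0.28, and the Bag3 difference was 0.06 (SE 0.07, limma p = 0.444, adjusted p = 0.862).

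Among the small chaperones, no gene differed by more than its standard error. Hspb1, the HSP27 homologue that guards actin filaments, ran from 0.15 to 0.86 in mHFD with a median of 0.33 and from 0.17 to 0.48 in mLFD with a median of 0.40 (chr5:136365366-136365425). It was read on 8 arrays per group, since all 4 spots of slide 2 were non-uniform, and mHFD 05 at 0.86 and mHFD 01 at 0.71 lay above the mLFD range. The Hspb1 difference was 0.04 (SE 0.09, limma p = 0.689, adjusted p = 0.935), with the mHFD median below the mLFD median.

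Hspb7, a small heat shock protein of heart and skeletal muscle, ran from -0.59 to 0.46 in mHFD with a median of -0.09 and from -0.61 to 0.26 in mLFD with a median of -0.06 (chr4:140980355-140980414). The array mHFD 01 was the highest, and low values occurred in both groups, at mHFD 04, mLFD 04 and mLFD 06. The Hspb7 difference was 0.06 (SE 0.11, limma p = 0.578, adjusted p = 0.906). This probe is spotted 10 times on each array, of which 8 to 10 were used. The SD between its spots on an array had a median of 0.114 and ran from 0.045 to 0.315, and the SD of the array means within groups was 0.271.

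Cryab encodes alpha B-crystallin, a chaperone of desmin and the Z-disc. On its brighter probe (chr9:50564566-50564625) the log2 ratio ran from -0.09 to 0.62 in mHFD with a median of 0.24, and from -0.12 to 0.42 in 8 mLFD mice with a median of 0.20. The 2 arrays above the mLFD range were mHFD 05 at 0.62 and mHFD 01 at 0.45. The Cryab difference was 0.06 (SE 0.10, limma p = 0.538, adjusted p = 0.893), and the dimmer probe (chr9:50561458-50561517) gave -0.02 (limma p = 0.740). Over 18 arrays the pair of probes had r = 0.639 within groups. The sign of the Cryab difference was negative under 7 of 42 other settings, among them median centring (-0.053).

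The same arrays were high for many of the inducible and constitutive genes. The array mHFD 01 was the highest of the 20 for 5 of 9 genes, against 6.1% of all probes, and among the 3 highest for 9 of 9, against 17.5% of all probes. For mHFD 08, 5 of the 6 inducible and constitutive genes and 0 of the 3 small chaperones had it among the 3 highest arrays, against 20% of all probes. These counts use the brightest probe of each gene, and over all heat shock probes the count was 7 of 13. The array mHFD 08 ranked 3 on the dimmer Cryab probe, 6 on the third Hspa8 probe and 11 on the dimmer Hsph1 probe. To set the classes side by side, each gene was centred on its mean over the arrays and the genes of a class were averaged per array. The inducible class then ran from -0.21 to 0.65 in mHFD with a median of 0.01, and from -0.28 to 0.10 in mLFD with a median of -0.05. The values of 0.65 for mHFD 01 and 0.47 for mHFD 08 lay far above the others. The next, mHFD 07, was at 0.13, and the other 7 mHFD arrays lay within the mLFD range. The small class ran from -0.32 to 0.39 in mHFD with a median of 0.0016, and from -0.42 to 0.15 in mLFD with a median of 0.0035. It was highest on mHFD 01 at 0.39 and mHFD 05 at 0.26, while mHFD 08 ranked 12 of 20 at -0.03. The lowest value, for mLFD 04, rests on Hspb7 alone.

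**Figure D2:**
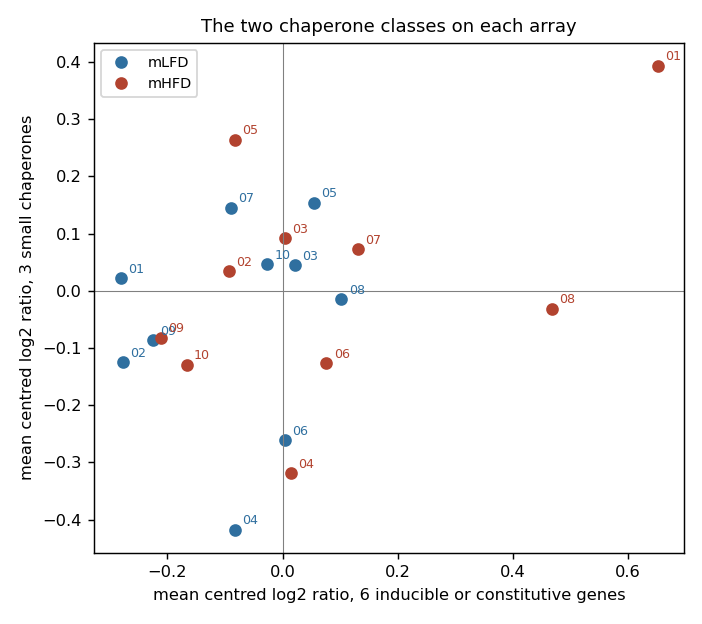
Mean centred log2 ratio of the 3 small chaperones (vertical axis) against that of the 6 inducible and constitutive genes (horizontal axis), 1 point per mouse, coloured by group and labelled with the replicate number. Each gene is read on its brightest probe. Mouse mHFD 01 stands apart on both axes at 0.65 and 0.39, mHFD 08 on the horizontal axis only at 0.47 against -0.03.

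Each slide carried 2 mHFD arrays, at positions 1 and 3, and 2 mLFD arrays, at positions 2 and 4, so that each slide gives its own comparison, while group and an alternation between odd and even positions cannot be told apart. On slide 1 the differences were above 0 for 6 of 6 inducible and constitutive genes and averaged 0.56. This slide holds mHFD 01, with a centred class mean of 0.65, and mHFD 02 at -0.09, and its mLFD arrays, mLFD 01 and mLFD 02, were the lowest of all 20 at -0.281 and -0.278. On slide 4, which holds mHFD 08, they were above 0 for 6 of 6 and averaged 0.29. The other slides gave means near 0 for this class: 0.05 on slide 2 (5 genes), -0.03 on slide 3 and -0.06 on slide 5. Hsp90aa1 had within-slide differences of 0.85, -0.0044, 0.19, 0.53 and 0.03 on slides 1 to 5. Hspa1a had 0.78, 0.47, 0.05, 0.17 and -0.22, which were above 0 on 4 of 5 slides. Its probe was not well above background on mHFD 03, mLFD 03 and mLFD 04 of slide 2. The same held for mHFD 05 and mLFD 05 of slide 3, and for mHFD 07 and mLFD 07 of slide 4. The small chaperones averaged 0.27 on slide 1, 0.12 on slide 3, -0.04 on slide 4 and -0.09 on slide 5, and on slide 2 Hspb7 alone could be compared, at 0.0084.

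**Figure D3:**
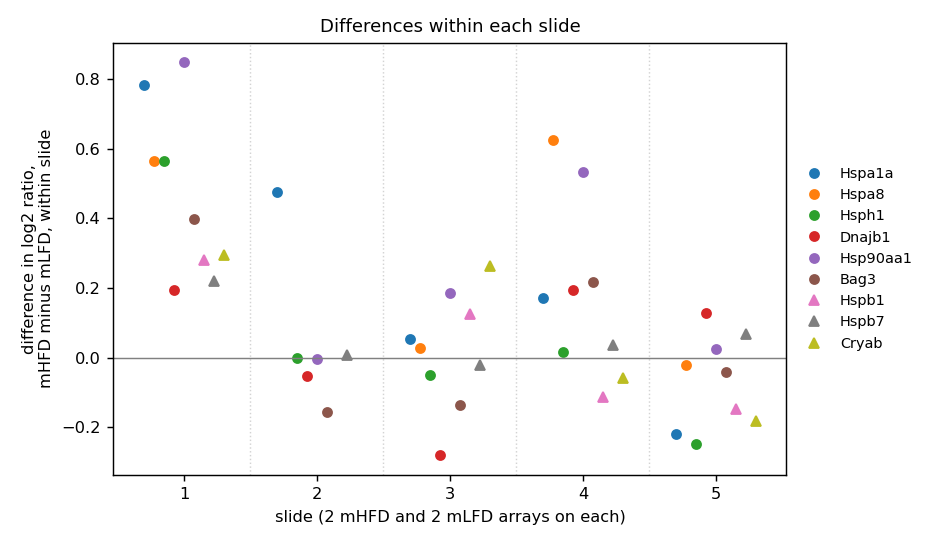
Difference in log2 ratio between the mHFD and mLFD arrays of a slide (vertical axis) for each gene, by slide (horizontal axis); circles are inducible and constitutive genes and triangles are small chaperones. Hsp90aa1 differs by 0.85 on slide 1 and 0.53 on slide 4, and by 0.19 or less on the others.

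Without mHFD 01 the Hspa1a difference was 0.15, that of Hspa8 0.22 and that of Hsp90aa1 0.23. Without mHFD 08 the differences were 0.22, 0.17 and 0.25 in the same order. With both arrays left out they were 0.10 (SE 0.09), 0.10 (SE 0.08) and 0.14 (SE 0.12), with limma adjusted p values of 0.839, 0.831 and 0.841. This pair was chosen after seeing the data, and it holds the 2 highest values of each of these 3 genes. Leaving it out therefore had to lower their differences, so the drop is a description and not a test. Leaving out both arrays put 3 of the 6 inducible and constitutive genes, 3 of the 3 small chaperones and 6 of the 13 probes above 0. Without mHFD 01 alone, 5 of 6 inducible and constitutive genes and 1 of 3 small chaperones stayed above 0, and 7 of 13 probes. Without slide 1 the counts were 3 of 6, 1 of 3 and 4 of 13. Of all probes, 51.0% were above 0 with both arrays left out, 51.0% without mHFD 01 alone and 50.6% without slide 1.

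**Figure D4:**
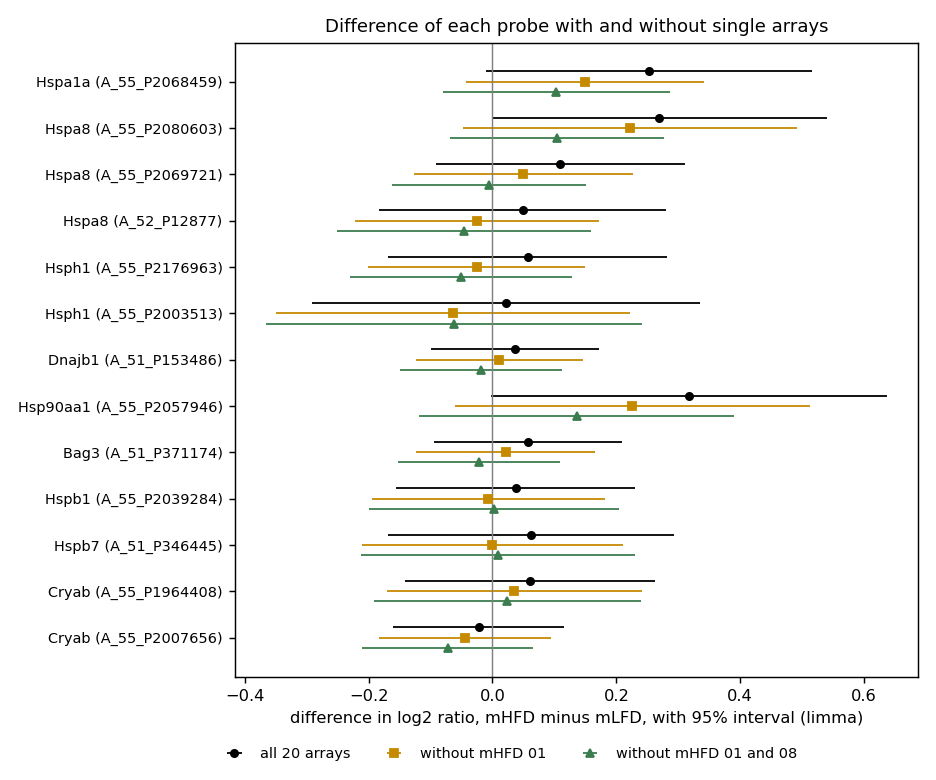
Difference in log2 ratio, mHFD minus mLFD, with its 95% interval from limma (horizontal axis) for each of the 13 probes, over all 20 arrays (black circles), without mHFD 01 (yellow squares) and without mHFD 01 and 08 (green triangles). For Hsp90aa1 the difference is 0.32, 0.23 and 0.14 in that order, and every interval in the plot reaches 0. The arrays left out were chosen after seeing the data, as those with high values.

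The mHFD arrays also spread more widely than the mLFD arrays for several members. The ratio of the SD in mHFD to that in mLFD was 2.06 for Hspa1a, 2.29 for Hspa8, 1.81 for Hsph1, 1.58 for Hsp90aa1 and 2.25 for Hspb1. For Dnajb1, Hspb7 and Cryab it was 0.94, 0.92 and 1.01, and for Bag3 1.28. Thus 5 of 9 genes had a ratio of 1.5 or more on their brightest probe, against 15.0% of all probes, whose median ratio was 0.990. On the other probes of these genes the ratio was lower for Hspa8, at 1.32 and 1.01, and for Hsph1, at 0.92. The dimmer Cryab probe had 1.02. This spread is a description of the same arrays and was not tested.

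The count of probes well above background in Cy5 ran from 15506 to 23410 over the arrays and was 21437 on mHFD 01 and 19012 on mHFD 08. The factor by which the scanner software had scaled Cy5 ran from 1.15 to 6.10 and was lowest on slide 1. The 10 markers of skeletal muscle were all bright enough to be tested. Of these, 7 had differences above 0 and 3 below, with a median of 0.02. The marker counts stand beside 51.6% of all probes above 0, and markers of a list share the same arrays. Differences were below 0 for 7 of 7 adipocyte markers (median -0.35), for 7 of 7 slow fibre markers (median -0.22) and for 5 of 5 neutrophil and mast cell markers (median -0.09), and 0 of these passed the test. Within the last list, the neutrophil genes S100a9 and S100a8, named after their values were seen, differed by -1.16 (limma p = 0.0379) and -0.82 (limma p = 0.0326). The 3 mast cell genes differed by -0.09 to -0.0060. S100a8 was well above background on 11 of 20 arrays. The neutrophil genes Ngp and Ltf of that list were so on 1 and 2 arrays and were not tested. Tenocyte markers were below 0 for 5 of 6 (median -0.12). Of these, 2 had an unadjusted limma p under 0.05, as did 7.14% of all probes in either direction. The centred adipocyte mean ran from -0.78 to 0.52 in mHFD and from -0.78 to 1.15 in mLFD, with mHFD 01 at -0.60 and mHFD 08 at -0.45. The centred tenocyte mean was the highest of the 20 arrays on mHFD 08, at 0.39, and the centred endothelial mean the lowest on mHFD 01, at -0.16. The adipocyte gene Lep was not well above background on any array. The part of these cells in the chaperone values was not tested, and in whole muscle fewer cells of a type and less RNA per cell cannot be told apart.

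Other genes of the chaperone network were counted in the same fit, and 0 passed the test in any list. The counts of genes above 0 stand beside 51.6% of all probes. Genes of a list were measured on the same arrays, so they are not independent of each other. Of 5 other small heat shock protein genes, 3 had differences above 0 and 2 below, with a median of 0.02. Hspb2, which neighbours Cryab in the genome, differed by -0.19 (limma p = 0.114) and Hspb6, a small chaperone of muscle, by 0.09. The 4 heat shock factors and regulators were all below 0, with a median of -0.08, among them Hsf1 at -0.16 (limma p = 0.0727, adjusted p = 0.702). Hsf1 encodes the factor that drives the inducible genes. Of 7 other HSP70 and HSP110 genes, 4 were above 0, with Hspa1l at 0.15 (limma p = 0.0279) and Hspa14 at -0.13 (limma p = 0.0371).

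HSP90 and its co-chaperones had 11 of 16 genes above 0, against 51.6% of all probes, with a median of 0.06. The co-chaperone gene Cdc37l1 differed by 0.18 (limma p = 0.00471) and p23, encoded by Ptges3, by 0.27 (limma p = 0.0117), both with an adjusted p of 0.679 or more, while Hsp90ab1, the constitutive HSP90, differed by 0.07. Of 15 J-domain genes 11 were above 0, with a median of 0.06, and Dnajb5 had the largest of these differences at 0.29 (limma p = 0.00656). Of 8 other BAG and nucleotide exchange genes 5 were above 0, with Bag1 at 0.14 and St13, an HSP70-interacting protein, at -0.23. The 8 subunits of the TRiC chaperonin, which folds actin and tubulin, were split 6 above and 2 below, and the 8 mitochondrial chaperones 4 and 4. In chaperone-assisted autophagy at the Z-disc, the route in which Bag3 acts, 4 of 9 genes were above 0, with filamin C (Flnc), a client of that route, at 0.23 (limma p = 0.0439, adjusted p = 0.690).

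Stress-linked groups outside the cytosolic chaperones were counted beside them, again against 51.6% of all probes above 0. Their genes share the same arrays too, so the counts are not made of independent genes. Of 13 endoplasmic reticulum chaperones 12 were above 0, with a median of 0.09, among them Hspa5 (BiP) at 0.25 (limma p = 0.0174) and Hsp90b1 (GRP94) at 0.22 (limma p = 0.0282). Of 18 immediate early genes 15 were above 0, with a median of 0.06, and Atf3, a stress-responsive transcription factor, differed by 0.59 (limma p = 0.00279, adjusted p = 0.679). On mHFD 01 the centred means of both lists were the highest of the 20 arrays, at 0.23 for the endoplasmic reticulum list and 0.24 for the immediate early list. The array mHFD 01 was also the highest for HSP90 and its co-chaperones (0.23), BAG and nucleotide exchange genes (0.16), TRiC (0.11) and mitochondrial chaperones (0.14). It ranked 2 for other HSP70 and HSP110 genes and for Z-disc autophagy, and 3 for J-domain genes. For other small heat shock proteins and for heat shock factors it ranked 10 and 11. On mHFD 08 the endoplasmic reticulum and immediate early lists ranked 8 and 7, at 0.05 and 0.03. That array was also 19 of 20 for the list of HSP90 and its co-chaperones, at -0.10, although Hsp90aa1 itself was second highest there.

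The likeness of patterns was read as Pearson's r over the arrays after the group means had been taken off, and it is a description in which all genes share the same 20 hybridisations. With Hsp90aa1, Bag3 had r = 0.777, Hspa8 0.776 (17 arrays), Hspa1a 0.755 and Hsph1 0.717 on their brightest probes. The third Hspa8 probe had r = 0.350 (0.061 without mHFD 01) and the dimmer Hsph1 probe r = 0.324 (0.088 without mHFD 01). Dnajb1 had r = 0.427, Hspb1 0.288 (16 arrays) and Hspb7 0.034. The Cryab probes had r = 0.378 (18 arrays) and 0.690 with Hsp90aa1. Without mHFD 01 the values on the brightest probes were 0.709 for Bag3, 0.749 for Hspa8, 0.641 for Hspa1a, 0.578 for Hsph1, 0.297 for Dnajb1, 0.075 for Hspb1 and -0.312 for Hspb7.

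Among 14957 other probes compared, the genes most like Hsp90aa1 were Gch1 (r = 0.863), which encodes the first enzyme of tetrahydrobiopterin synthesis, the transcript TC1627089 (0.862), Hps4 (0.840), the salt-inducible kinase gene Sik1 (0.835) and 1700123K08Rik (0.824). Those most like Hspa1a were Atf3 (r = 0.901), the sulfiredoxin gene Srxn1 (0.896), the ubiquitin ligase gene Herc4 (0.875), the adenylate cyclase gene Adcy4 (0.871) and the splicing factor gene Sfpq (0.840). Without mHFD 01, r with Hspa1a was 0.876 for Atf3, 0.788 for Srxn1, 0.864 for Herc4, 0.777 for Adcy4 and 0.740 for Sfpq. With Hsp90aa1 it was 0.894 for Gch1, 0.831 for TC1627089, 0.868 for Hps4, 0.767 for Sik1 and 0.749 for 1700123K08Rik. For Cryab, read on the dimmer probe because it was measured on all 20 arrays, the genes most like it included Hist1h2ba (r = 0.781), Prmt10 (0.778), Slc9a7 (0.764) and Fignl2 (0.763).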

How the data were processed

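RNA from 20 quadriceps samples had been hybridised to 2-colour Agilent arrays, each sample in Cy5 against a Cy3 pool of all samples from 200 ng of RNA, without dye swap, per the labels. The scanner program was Agilent Feature Extraction 10.7.3.1 and coordinates are of build mm9, per the file headers. The deposited scanner files hold intensity values of both dyes. They also hold, already background-subtracted and dye-normalized by the authors' scanner program, the log10 of the Cy5 to Cy3 ratio. The authors' deposited table of log2 values for 19377 spots has a median of 7.54 in every column. Its gene-centred correlation with the loess log ratios was 0.449 to 0.968 per array, so higher values in it tend to go with higher log ratios. Whether its values are ratios to the pool, and their background correction and scaling, are not given in the sources used here.

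From the scanner files, normexp (offset 50) was applied to mean signals, and loess within each array to the resulting log2 ratios. Control spots (1377) and outlier spots were left out, spots of a probe were averaged, and a probe was tested if 10 or more of the 20 arrays showed it well above background in Cy5. A gene was represented by its brightest tested probe. Groups were compared with limma 3.58.1 in R 4.3.3, two-sided, with Benjamini-Hochberg adjustment over all 19206 probes and a threshold of 0.05. On simulated log ratios, 65% of 100 probes changed by 0.3 and 91% of 100 changed by 0.6 were recovered, 8 of 164 calls were on unchanged probes, and 0 calls were made where no probe changed. The changed probes were picked at random, with noise independent between probes. With 164 calls the adjusted threshold was easier to pass than with the 1 call in the measured data. These shares do not hold for Hsp90aa1, Hspa8 and Hspa1a, whose SEs of 0.15, 0.13 and 0.13 exceeded the median SE of 0.0609. Precision is limited by the number of arrays.

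The members and gene lists were chosen with earlier results of these data known. All members are named. From each other list the 2 genes of smallest p and the brightest gene could be named, and for Hsp90aa1, Hspa1a and Cryab the 5 genes most like them, of which 1 for Cryab is not reported here. For means over a class or list, each gene was first centred on its mean over arrays. Alternatives covered background correction, normalization, the authors' table, filters, outlier and saturated spots, slide, position, array weights, the choice of probe, a replicate block, and leaving out each array or slide.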

Additional observations from a re-analysis of the deposited data

Results flagged for a closer look

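In 2 of 26 combinations of a heat shock probe and a group, 1 array lay so far from the other 9 that its gap to the nearest, as a share of the whole range of the group, exceeded Dixon's 95% critical value for 10 samples. Chance gives about 1 in 20 such cases, or 1.3 in 26. Both concern the array mHFD 01. For Hspa1a its log2 ratio of 0.99 stood above the next mHFD value of 0.33, a share of 0.475. For the third probe of Hspa8 its log2 ratio of 0.48 stood above the next mHFD value of -0.08, a share of 0.582. The 13 probes were measured on the same arrays, so these cases are not independent of each other.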

How the results depend on the processing

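In all 42 alternative settings 0 heat shock genes passed the test. The count over all probes, 1 of 19206, was 0 with the scanner software's log ratio, median centring, scaling between arrays, Cy5 alone, the authors' deposited table, slide as a fixed block, position as a covariate, slides 1 to 4 left out one at a time, and mHFD 01 and mHFD 08 left out together, a setting chosen after seeing the data. It ranged from 0 to 1 over single arrays left out. With the replicate number as a block it was 2, and the labels do not say whether the numbers pair the samples. For that reason they were not treated as pairs. The deviations of the 10 same-numbered pairs had correlations of -0.0098 to 0.354, of which 8 were over 0.1. Of 10 mHFD arrays, 3 correlated best with their own number. The median over same-numbered pairs was 0.174, against 0.102 for another number on the same slide. These values do not exclude that the numbers pair samples. Probes with an unadjusted limma p under 0.05 numbered 1990 with the block and 1371 without it. The block changed no call of a heat shock gene, with unadjusted limma p = 0.0229 for Hsp90aa1 and 0.0202 for Hspa8. Genes with a difference above 0 numbered 6 to 9 with single arrays left out, 6 to 9 in the other settings and 4 without slide 1. Of all probes, 50.6% were above 0 without slide 1, 50.1% with Cy5 alone and 56.6% in the authors' deposited table. The median of the inducible and constitutive genes was 0.09 to 0.20 with single arrays left out, 0.06 to 0.24 with slides left out and 0.04 to 0.17 in the other settings. That of the small chaperones was -0.00016 to 0.08, -0.0098 to 0.10 and -0.04 to 0.07.

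Hspa1a, Hspa8 and Hsp90aa1 were above 0 in every setting that gave a value, at 0.10 to 0.76, 0.079 to 0.35 and 0.14 to 0.40. The sign turned for Dnajb1 with the scanner software's log ratio (-0.0014), slide 1 (-0.0028) or slide 4 (-0.0028) left out, and mHFD 01 and 08 left out (-0.019). For Cryab it turned with the scanner log ratio (-0.050), median centring (-0.053), Cy5 alone (-0.0283), the authors' deposited table (-0.028), outlier spots kept (-0.016), position (-0.037) and slide 1 left out (-0.0098). For Hspb1 it turned with scaling (-0.019), the authors' deposited table (-0.02), position (-0.021) and slide 1 left out (-0.044), for Bag3 with Cy5 alone (-0.20), slide 1 (-0.0282) and both mHFD arrays left out (-0.0215), for Hspb7 with position (-0.090), and for Hsph1 with slide 1 (-0.070) and both arrays left out (-0.051). With single arrays left out, Hspb1 ranged from -0.0281 (without mHFD 05) to 0.073 and was -0.0066 without mHFD 01, Hspb7 from -0.00016 (without mHFD 01) to 0.12, and Hsph1 from -0.026 (without mHFD 01) to 0.10. The cause was not tested. The Hspa1a probe, below the background criterion on 7 arrays, is the one limited by signal.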
